A study of Mus musculus with 10 samples.

Results

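Mast cells of the skin were followed through 10 genes, the chymases Mcpt4 and Cma1, the carboxypeptidase Cpa3, the tryptases Tpsb2 and Tpsab1, the receptors Kit, Fcer1a and Ms4a2, the histamine-forming enzyme Hdc and the transcription factor Gata2. They were taken by name, as every probe set on the array whose annotation gave exactly 1 of these symbols, which yielded 15 probe sets for 10 of the 18193 genes named on the array. A probe set is the group of short probes that reads a transcript; 5 of the genes were read by 1 probe set and 5 by 2. Skin came from C3H/HeJ mice, an inbred strain prone to alopecia areata (AA), that were free of disease as young adults and then received a graft of alopecic skin from an affected C3H/HeJ donor, which transfers the disease. All mice carried such a graft and an osmotic pump implanted at grafting. In 5 mice the pump delivered baricitinib, which inhibits the Janus kinases JAK1 and JAK2, and in the other 5 it delivered vehicle, and skin was sampled at week 12 with 1 array per mouse. The age at sampling, the sex of the mice and the site of the biopsy were not given in the labels. The question asked of these genes was whether mast cell transcripts in skin of grafted mice differed between those treated from the time of grafting and their vehicle controls.

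Mast cells are long-lived tissue leukocytes that settle in the dermis and around its vessels, nerves and fat. Their survival depends on KIT, the receptor for stem cell factor, which signals through kinases that include JAK2, and they are armed by IgE bound to the high-affinity receptor FcεRI. On activation they release granules that hold histamine, heparin and the proteases encoded by Mcpt4, Cma1, Cpa3, Tpsb2 and Tpsab1. These proteases mark the connective tissue type of mast cell found in skin, whereas the mouse mucosal type is marked by Mcpt1 and Mcpt2.

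Values were log2 expression values made with RMA, which corrects background, gives all arrays a common distribution and combines the probes of a set. Values are therefore compared between arrays for the same probe set and never between probe sets. RNA quality was read from control probe sets at the 3' and 5' ends of the Gapdh and beta-actin transcripts, whose gap (3' minus 5') grows as RNA degrades. It was 1.06 ± 0.08 log2 in the baricitinib group and 2.89 ± 1.40 in the vehicle group (SD, n = 5 each, two-sided exact permutation p = 0.0317). Vehicle replicate 4 had a gap of 1.01, inside the baricitinib range of 0.99 to 1.18, and the other vehicle arrays had gaps of 2.0 to 4.35. Vehicle replicate 5 stood apart from every other array, with correlations of 0.70 to 0.73 against 0.95 to 0.99 among the remaining 9 arrays. The study's methods state that a vehicle array was removed after quality control but the labels do not name it, so differences are given with all 10 arrays and again without vehicle replicate 5.

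The granule proteases Mcpt4, Cma1 and Tpsb2 were the members with the widest separation, each higher on all 5 baricitinib arrays than on any of the 5 vehicle arrays. Their mean differences were 2.66, 1.62 and 2.37 log2, which are 6.33-fold, 3.07-fold and 5.18-fold. In limma no member probe set had an adjusted p under 0.05 (0 of 15), and neither did any probe set on the array, 0 of 45037 or 0%. The members' adjusted p ran from 0.221 to 0.913. At an unadjusted limma p under 0.05 there were 5 of 15 member probe sets, all higher with baricitinib and all for Mcpt4, Cma1, Tpsb2 or Gata2, where the share over the whole array in that direction was 9.21%. The groups did not overlap, with baricitinib higher, at 3 of 15 member probe sets, against 3.09% of all probe sets with all arrays and 4.42% without vehicle replicate 5, where the member count was again 3. With the brightest probe set for each gene, 9 of 10 members had a positive difference and the median was 0.96 log2, beside a median of 0.01 over all 18193 genes. Without vehicle replicate 5 these medians were 0.64 and -0.06. The members were chosen with earlier results of these data known, so the comparisons with the whole array are a description and not a test. In whole skin a different number of mast cells and a different amount of transcript per cell cannot be told apart.

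**Figure D1:**
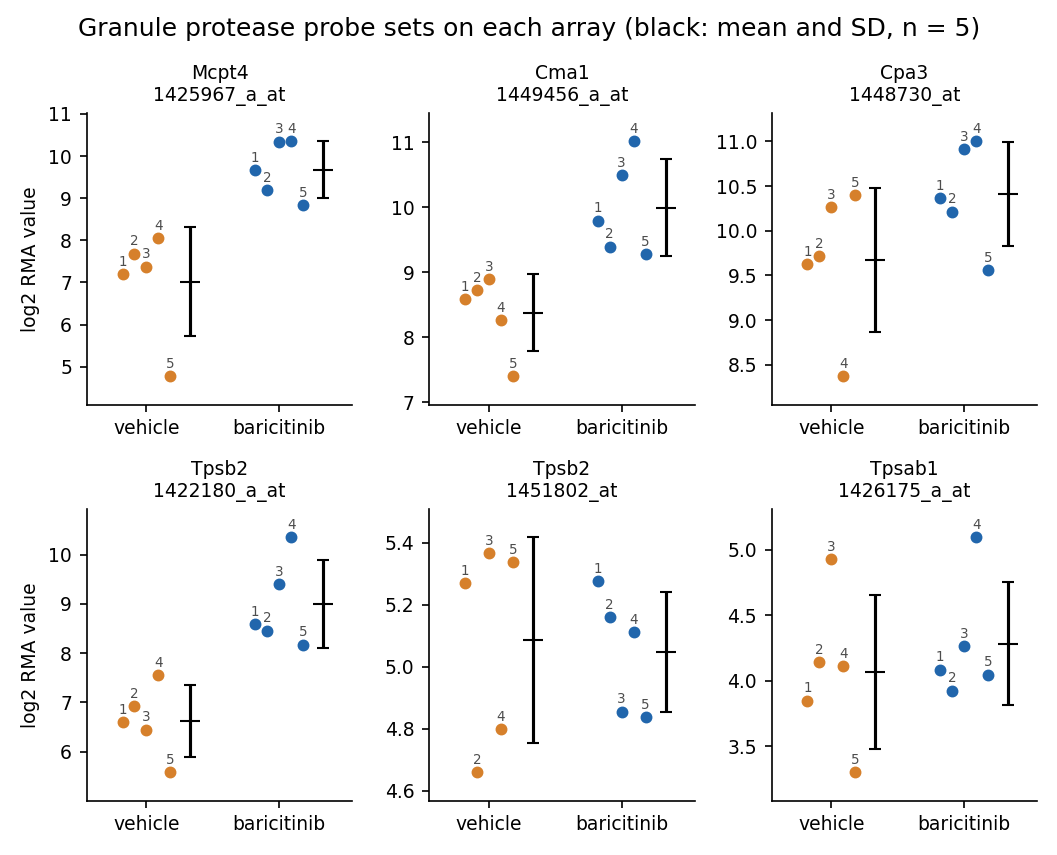
Log2 RMA value of each granule protease probe set on each vehicle array (orange) and baricitinib array (blue), with replicate numbers at the points and black marks for the mean ± SD of 5 arrays. Mcpt4 lay between 8.84 and 10.35 on baricitinib arrays and between 4.77 and 8.05 on vehicle arrays, while Cpa3, the dim Tpsb2 probe set and Tpsab1 overlapped between groups.

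Mcpt4 encodes mouse mast cell protease 4, the chymase that carries out most of the chymotrypsin-like cleavage in mouse connective tissue mast cells. Its probe set read 9.66, 9.20, 10.34, 10.35 and 8.84 log2 in baricitinib replicates 1 to 5 and 7.20, 7.69, 7.37, 8.05 and 4.77 in vehicle replicates 1 to 5. The lowest baricitinib array lay 0.79 log2 above the highest vehicle array, which was vehicle replicate 4. The group means were 9.68 ± 0.68 and 7.01 ± 1.30 (SD, n = 5), a difference of 2.66 ± 0.59 (SE, limma adjusted p = 0.221). Vehicle replicate 5 alone widened the vehicle spread, and without it the difference was 2.10 ± 0.33 (SE, limma adjusted p = 0.0733).

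Cma1 encodes mast cell protease 5, an alpha-chymase stored with Cpa3 in the same granules. It read 9.79, 9.39, 10.49, 11.01 and 9.28 log2 in baricitinib replicates 1 to 5 and 8.59, 8.73, 8.89, 8.26 and 7.40 in vehicle replicates 1 to 5. The groups were 0.39 log2 apart at their nearest arrays, baricitinib replicate 5 and vehicle replicate 3. The means of 9.99 ± 0.74 and 8.37 ± 0.59 (SD, n = 5) gave a difference of 1.62 ± 0.39 (SE, limma adjusted p = 0.223), and 1.38 ± 0.35 without vehicle replicate 5 (SE, limma adjusted p = 0.0789).

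Tpsb2 encodes mast cell protease 6, the main heparin-bound tryptase. Its brighter probe set read 8.58, 8.45, 9.41, 10.35 and 8.17 log2 in baricitinib replicates 1 to 5 and 6.60, 6.93, 6.44, 7.56 and 5.58 in vehicle replicates 1 to 5. As for Mcpt4, the highest vehicle array was vehicle replicate 4 and the lowest baricitinib array was replicate 5, 0.61 log2 apart. The difference was 2.37 ± 0.47 (SE, limma adjusted p = 0.221), or 2.11 ± 0.43 without vehicle replicate 5 (SE, limma adjusted p = 0.0733). It was the single member probe set called when vehicle replicate 4 was left out (difference 2.61, limma adjusted p = 0.0399). In that fit 1.31% of all probe sets were called higher. Without that array every vehicle array had a wider RNA gap (2.0 to 4.35) than any baricitinib array (0.99 to 1.18). Treatment and RNA quality cannot be told apart in that fit. A second, dim Tpsb2 probe set did not follow: it read 4.84 to 5.28 on baricitinib and 4.66 to 5.37 on vehicle arrays, with a difference of -0.04 whose sign turned in several alternatives. Tpsb2 was thus read as higher by 1 of its 2 probe sets.

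Cpa3, the mast cell carboxypeptidase, overlapped between groups. It read 10.37, 10.21, 10.91, 11.00 and 9.56 log2 in baricitinib replicates 1 to 5 and 9.63, 9.71, 10.26, 8.37 and 10.40 in vehicle replicates 1 to 5. The vehicle arrays were ordered differently here: vehicle replicate 5, the lowest for both chymases and for the brighter Tpsb2 probe set, was the highest, and vehicle replicate 4 was the lowest. The difference was 0.74 ± 0.41 (SE, limma adjusted p = 0.398), or 0.92 ± 0.40 without vehicle replicate 5 (SE, limma adjusted p = 0.173). It was 0.41 without vehicle replicate 4.

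Tpsab1 encodes mast cell protease 7, a second tryptase. Expression of this protease varies by mouse strain, and the RefSeq annotation of the C57BL/6J genome lists the gene as a transcribed pseudogene. Its probe set was dim, with 3.92 to 5.09 log2 on baricitinib and 3.30 to 4.93 on vehicle arrays. The groups overlapped throughout and differed by 0.22 ± 0.32 (SE, limma adjusted p = 0.687). The difference was 0.025 without vehicle replicate 5, 0.014 without baricitinib replicate 4 and 0.43 without vehicle replicate 3.

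Among baricitinib arrays the proteases kept a common order. Replicates 4 and 3 were the highest pair for Mcpt4, Cma1, Cpa3, the brighter Tpsb2 probe set and Tpsab1, and replicate 5 was the lowest for Mcpt4, Cma1, Cpa3 and that Tpsb2 probe set. The mean of the 5 protease genes was 8.50, 8.24, 9.08, 9.56 and 7.98 log2 in baricitinib replicates 1 to 5, and 7.17, 7.44, 7.58, 7.27 and 6.29 in vehicle replicates 1 to 5. The 5 genes are read from the same RNA of each mouse, so this common order is 1 observation for each array and not 5.

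GATA factors bind the core letters GATA, and Gata2 is itself among the members. The promoters of the proteases are therefore shown with longer forms of that core marked. The windows begin upstream of the annotated start, end just inside the transcript and come from RefSeq on build GRCm38.p6, written 5′ to 3′ on the gene's own strand. Of the 10 members 8 were in that table, with 10 windows in all, and Tpsb2 and Tpsab1 were not. Capitals mark the letters AGATAA or TGATAA, searched on both strands, of which neighbouring matches may share an end base.
Mcpt4 promoter, chr14:56062261-56062560, minus strand: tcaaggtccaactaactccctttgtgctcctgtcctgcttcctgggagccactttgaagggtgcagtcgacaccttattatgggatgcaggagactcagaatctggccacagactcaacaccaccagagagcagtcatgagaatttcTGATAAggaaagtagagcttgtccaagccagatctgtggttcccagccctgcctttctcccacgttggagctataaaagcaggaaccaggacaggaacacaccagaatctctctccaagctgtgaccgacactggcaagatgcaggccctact
Cma1 promoter, chr14:55944626-55944925, minus strand: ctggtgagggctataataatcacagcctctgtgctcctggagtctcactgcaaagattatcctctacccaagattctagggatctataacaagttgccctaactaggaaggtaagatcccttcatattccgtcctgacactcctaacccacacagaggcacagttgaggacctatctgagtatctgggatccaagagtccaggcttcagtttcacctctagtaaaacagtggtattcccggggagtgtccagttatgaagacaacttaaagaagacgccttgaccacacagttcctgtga
Cpa3 promoter, chr3:20242132-20242431, minus strand: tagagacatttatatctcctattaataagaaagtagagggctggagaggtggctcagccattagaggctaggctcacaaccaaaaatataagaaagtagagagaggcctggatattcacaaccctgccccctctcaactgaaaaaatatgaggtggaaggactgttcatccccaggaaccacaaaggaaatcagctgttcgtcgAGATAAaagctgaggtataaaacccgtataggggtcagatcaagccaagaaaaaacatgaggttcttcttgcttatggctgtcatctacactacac

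The Mcpt4 and Cpa3 windows each held 1 match on the gene's own strand, and the Cma1 window held neither form. Outside the proteases the window of Ms4a2 held 3 matches and that of Fcer1a 1, and those of Kit, Hdc and Gata2 held 0, so that 4 of 8 members had a match. Over all 32851 promoter windows of the same length the share with a match was 18.6%. That share counts windows, whereas the member count is of genes, which had 10 windows. A match describes letters and is not a measured site. Other sequences with the GATA core were not searched, so 0 matches does not mean that the core is absent.

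Gata2, a transcription factor needed for mast cell development and also active in endothelium, was higher on average by both of its probe sets. The brighter one was at 8.38, 7.44, 8.95, 9.06 and 7.69 log2 in baricitinib replicates 1 to 5 and at 7.40, 7.49, 8.09, 7.29 and 6.25 in vehicle replicates 1 to 5. Baricitinib replicates 1, 3 and 4 lay above every vehicle array, whereas replicates 2 and 5 lay within the vehicle range. The difference was 1.0 ± 0.41 (SE, limma adjusted p = 0.308), and 0.74 without vehicle replicate 5. The other probe set differed by 0.84 ± 0.28 (SE, limma adjusted p = 0.258), and only baricitinib replicate 2 (7.37) fell within its vehicle range of 7.07 to 7.58. Vehicle replicate 5 was the lowest vehicle array for the brighter probe set (6.25) and the highest for the other (7.58), whose difference without it was 0.91.

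Hdc, which makes histamine from histidine, is known from mast cells and basophils. Its brighter probe set read 7.17, 6.63, 8.36, 8.55 and 7.73 log2 in baricitinib replicates 1 to 5 and 6.96, 7.04, 7.25, 7.85 and 4.78 in vehicle replicates 1 to 5. Only baricitinib replicates 3 and 4 exceeded all vehicle arrays. The difference of 0.91 ± 0.57 (SE, limma adjusted p = 0.432) dropped to 0.41 ± 0.39 without vehicle replicate 5 (SE, limma adjusted p = 0.492). The dimmer probe set differed by 0.62 with all arrays and by 0.62 without that array. By their names both Hdc probe sets hold probes that can match more than 1 transcript.

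Kit, the receptor for stem cell factor, showed another order of arrays. It read 8.12, 8.39, 7.68, 7.60 and 7.65 log2 in baricitinib replicates 1 to 5 and 7.13, 7.07, 7.07, 8.07 and 4.02 in vehicle replicates 1 to 5 by its brighter probe set. Vehicle replicate 4 lay among the baricitinib arrays, and baricitinib replicates 3 and 4, the highest for the proteases, were among the lowest of their group. The difference of 1.21 ± 0.64 (SE, limma adjusted p = 0.382) was 0.55 ± 0.25 without vehicle replicate 5 (SE, limma adjusted p = 0.186). The dim probe set gave the same 3 arrays as the highest, baricitinib replicates 2 (4.86) and 1 (4.71) and vehicle replicate 4 (4.68), and differed by 0.74 ± 0.34 (SE, limma adjusted p = 0.347). KIT is also present on melanocytes. The mean of 8 melanocyte markers was highest in baricitinib replicate 2 (10.13) and vehicle replicate 4 (9.29), against 6.63 to 8.18 on the other arrays, and its part in the Kit values was not tested.

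The FcεRI subunits Ms4a2 and Fcer1a did not share a direction, and neither was called in limma. Ms4a2, the signal-amplifying beta chain, read 6.45 to 7.81 log2 on baricitinib and 6.01 to 7.40 on vehicle arrays by its brighter probe set (difference 0.26 ± 0.34, SE, limma adjusted p = 0.644). That difference was 0.37 without vehicle replicate 5, but 0.048 without vehicle replicate 4, 0.15 without vehicle replicate 2, 0.094 without baricitinib replicate 3 and 0.44 without baricitinib replicate 2. Its other probe set was near the floor of the array, at 2.89 to 3.58 and 2.59 to 3.34 (difference 0.40 ± 0.20, SE, limma adjusted p = 0.371). Fcer1a, the IgE-binding alpha chain, was dim and was the only member gene with a negative difference by its brightest probe set. It read 3.12, 2.86, 4.57, 4.66 and 5.58 log2 in baricitinib replicates 1 to 5 and 5.56, 4.89, 6.06, 4.16 and 4.62 in vehicle replicates 1 to 5. Baricitinib replicates 1 and 2 were below every vehicle array, and replicate 5, the lowest of its group for most proteases, was here the highest. The difference was -0.90 ± 0.55 (SE, limma adjusted p = 0.427) and -1.01 ± 0.59 without vehicle replicate 5 (SE, limma adjusted p = 0.281), and -0.58 without baricitinib replicate 2.

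**Figure D2:**
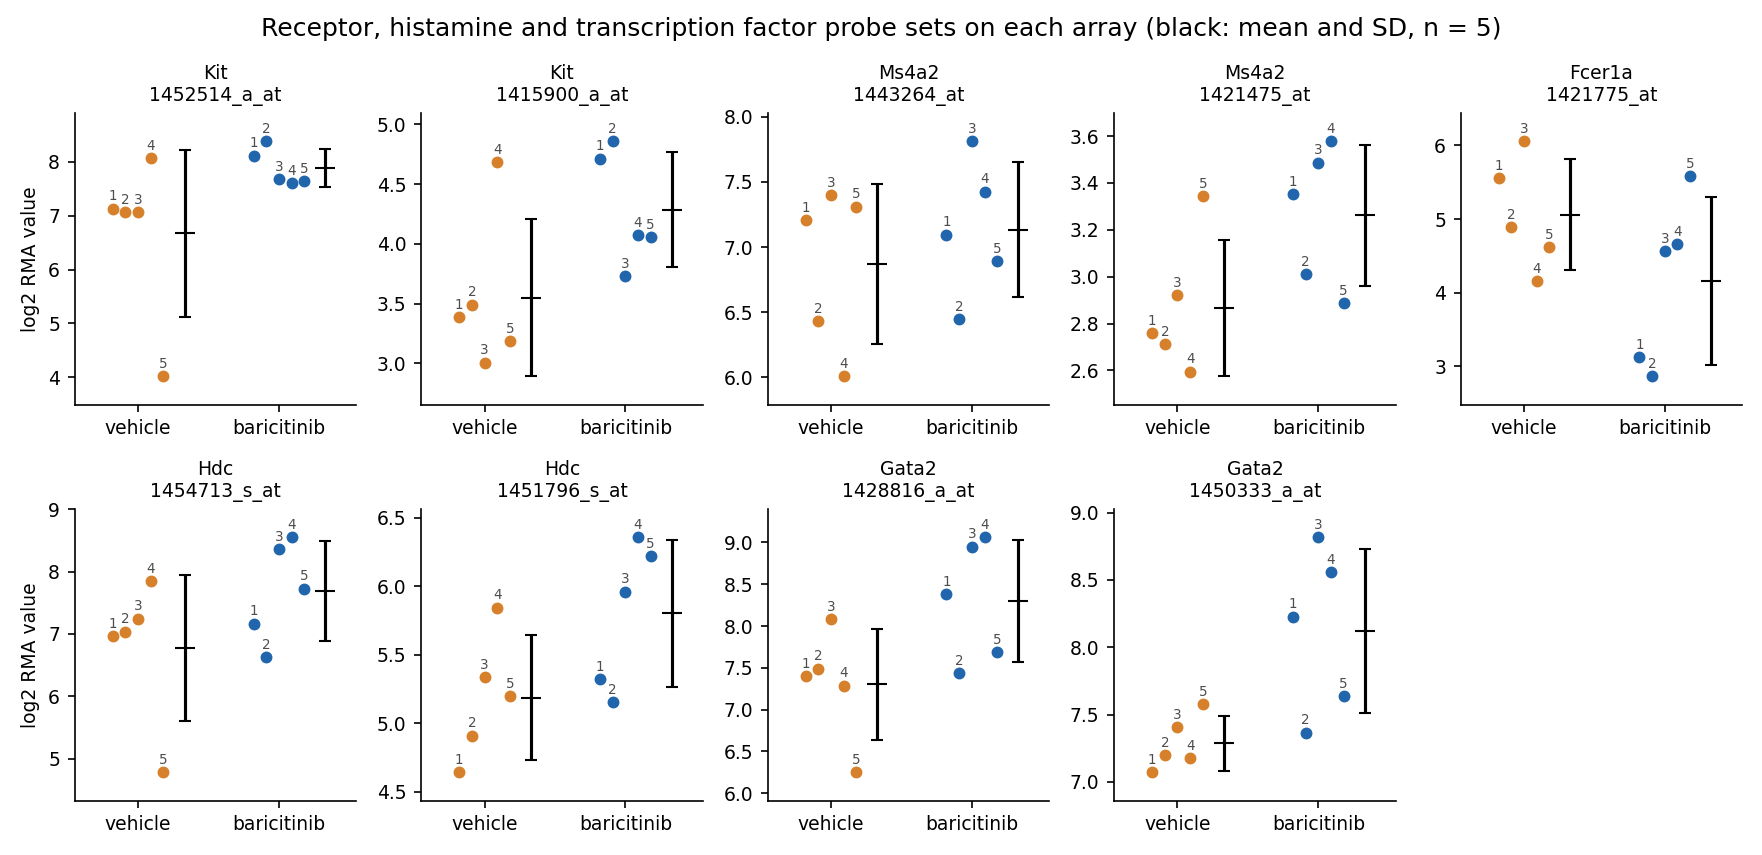
Log2 RMA value of each probe set of Kit, Ms4a2, Fcer1a, Hdc and Gata2 on each vehicle array (orange) and baricitinib array (blue), with replicate numbers and black marks for the mean ± SD of 5 arrays. The groups overlapped for all 9 probe sets, and for Kit vehicle replicate 4 (8.07) lay within the baricitinib range of 7.60 to 8.39.

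**Figure D3:**
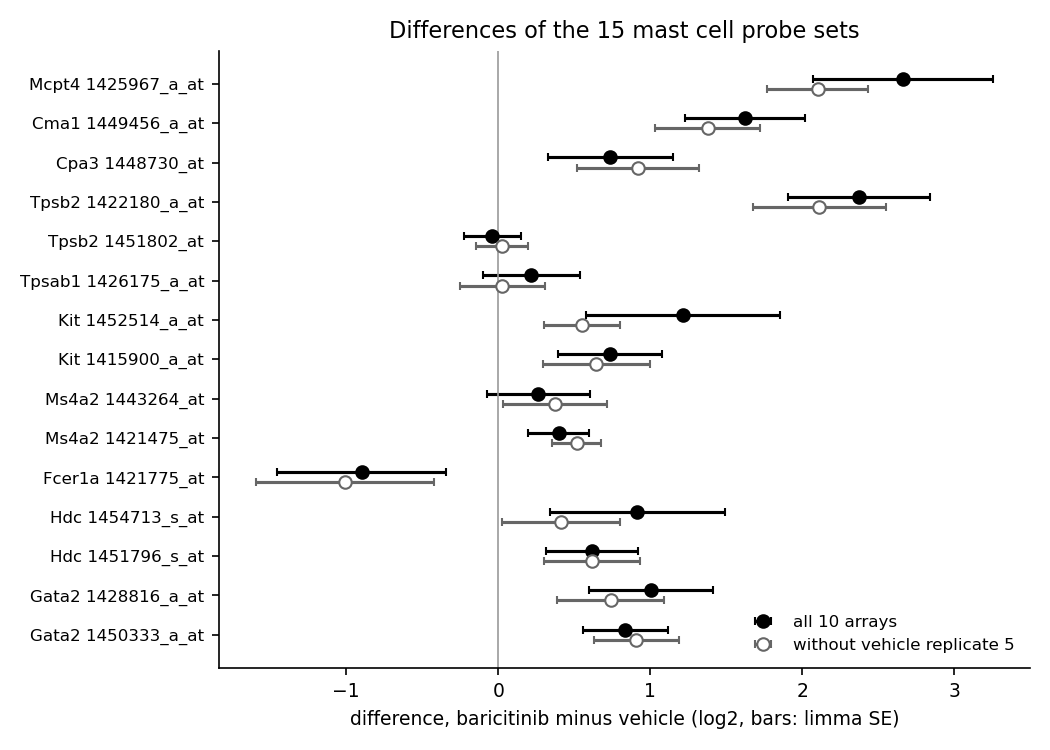
Difference between baricitinib and vehicle arrays in log2 with its limma SE for each of the 15 probe sets, where filled points use all 10 arrays and open points leave out vehicle replicate 5. Mcpt4, Cma1 and the brighter Tpsb2 probe set lay farthest to the right with all arrays, at 2.66, 1.62 and 2.37, and Fcer1a farthest to the left at -0.90.

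Further mast cell genes were taken from a list of 24, of which 20 were measured. None was called in limma in either direction (0 higher and 0 lower). At an unadjusted p under 0.05 there were 6 higher and 0 lower, beside 9.21% of all probe sets higher. Differences were positive for 11 and negative for 9, with a median of 0.11 log2 (0.15 without vehicle replicate 5). Ltc4s, the leukotriene C4 synthase of mast cells and macrophages, was at 5.77 to 6.93 log2 on baricitinib and 3.83 to 5.55 on vehicle arrays, differing by 1.52 ± 0.34 (SE, limma adjusted p = 0.221). Slc18a2, the vesicular transporter that loads histamine and other amines into granules, was at 6.19 to 7.53 and 4.28 to 6.03 (difference 1.40 ± 0.38, SE, limma adjusted p = 0.227). Both were thus higher on each baricitinib array than on any vehicle array. Ndst2, whose product sulfates the heparin of the granule, also separated the groups, at 9.24 to 9.50 and 5.77 to 9.08 (difference 1.30, and 0.72 without vehicle replicate 5). In all, 3 of the 20 genes did not overlap between groups with baricitinib higher, beside 692 of all 18193 genes. Ndst2, the mucosal proteases and the basophil protease Mcpt8, given with the cell type markers, were singled out after their values were seen. Mcpt1 and Mcpt2 were at 1.95 to 3.10 and 2.65 to 3.57 log2 over all 10 arrays, near the floor of the array. Mitf, a transcription factor of mast cells and melanocytes, was at 11.65 to 12.36 and 11.39 to 11.72 (difference 0.39 ± 0.17, SE, limma adjusted p = 0.329).

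Of 14 growth and maturation factors and their receptors 13 were measured, with 4 positive and 9 negative differences and a median of -0.17 log2. Limma called 0, with 1 higher and 1 lower at an unadjusted p under 0.05, beside 9.21% of all probe sets higher. The share of all probe sets lower was not computed. Kitl encodes stem cell factor, the ligand of KIT. It was at 9.37 to 9.99 on baricitinib and 9.06 to 9.47 on vehicle arrays (difference 0.40 ± 0.18, SE, limma adjusted p = 0.332), and the groups separated without vehicle replicate 5, where the highest vehicle array was at 9.29. Csf2, the gene for the growth factor GM-CSF, and Il10, an anti-inflammatory cytokine gene, had the largest differences of this list, -0.84 and -0.83 (limma adjusted p = 0.344 and 0.381). Both were higher in baricitinib replicate 5, at 5.84 and 5.30, than in baricitinib replicates 1 to 4.

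Of 18 genes that carry the signal of FcεRI and KIT 16 were measured, with 8 positive and 8 negative differences. Their median was 0.03 log2 (-0.31 without vehicle replicate 5). Limma called 0, with 1 higher and 0 lower at an unadjusted p under 0.05, beside 9.21% of all probe sets higher. Pik3r1, the regulatory subunit of PI3 kinase present in many cell types, was at 10.68 to 11.72 log2 on baricitinib and 8.99 to 10.29 on vehicle arrays, a difference of 1.34 ± 0.30 (SE, limma adjusted p = 0.221). Ptpn6, a phosphatase of blood cells, differed by 1.06, but by 0.18 without vehicle replicate 5, which read 3.49 against 7.35 to 8.39 on the other vehicle arrays.

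Markers of the tissue in which mast cells lie were higher on baricitinib arrays as well. The mean of 8 endothelial markers was 7.14 to 8.63 log2 on baricitinib and 6.25 to 7.09 on vehicle arrays, that of 6 measured adipocyte markers 9.39 to 10.94 and 7.99 to 9.24, and that of 8 dermal fibroblast markers 11.12 to 11.94 and 10.20 to 11.06. None of these 3 list means overlapped between groups. All 8 endothelial and all 6 adipocyte markers had positive differences, with list medians of 1.21 and 1.63, and 7 of 8 fibroblast markers did (median 0.45). Skeletal muscle markers overlapped, at 11.25 to 12.85 and 10.54 to 12.13 (6 of 8 positive). Keratinocyte markers were at 12.36 to 12.78 and 12.04 to 12.64 (3 of 8 positive), macrophage markers at 10.31 to 11.03 and 9.10 to 10.75 (5 of 8 positive), T cell markers at 6.63 to 8.18 and 6.64 to 8.74 (1 of 6 measured positive) and the 4 measured basophil markers at 5.37 to 5.85 and 5.34 to 5.67. Among the basophil markers Mcpt8, the defining protease, was at 4.24 to 4.80 on baricitinib arrays and at 4.36 to 4.47 in vehicle replicates 1 to 4, with 6.52 in vehicle replicate 5. No gene of these lists was called in limma (0 in each list), and at an unadjusted p under 0.05 there were 6 endothelial, 5 adipocyte, 4 fibroblast and 6 muscle markers, all higher. Over the whole array 9.21% of probe sets were higher at that threshold, and the share that were lower was not computed. That share counts probe sets, whereas the lists count genes by their brightest probe set. By the same threshold 2 keratinocyte markers were higher and 2 lower, 1 macrophage marker was higher and 1 lower, 2 T cell markers were lower and 0 higher, and 0 melanocyte and 0 basophil markers were past it.

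Values were also taken relative to these markers on the same array. Relative to the endothelial mean Mcpt4 was still higher on every baricitinib array than on any vehicle array, with a difference of 1.52 log2 (1.09 without vehicle replicate 5), and so was the brighter Tpsb2 probe set, with 1.24 (1.10). The same held for both relative to the fibroblast mean, with 1.98 and 1.69, and relative to the muscle mean, with 1.79 and 1.51. Relative to the adipocyte mean the groups overlapped for Mcpt4 and Tpsb2, whose differences were 1.03 and 0.74 (0.58 and 0.59 without vehicle replicate 5). Cma1 kept differences of 0.48, 0.94 and 0.75 relative to endothelium, fibroblasts and muscle, with overlap, and -0.01 relative to adipocytes. Cpa3 had differences of -0.40, 0.05, -0.13 and -0.89 relative to endothelium, fibroblasts, muscle and adipocytes. Those of Tpsab1 were negative against each, at -0.92, -0.47, -0.65 and -1.41. Relative to adipocyte markers 2 of the 10 members had a positive difference, Mcpt4 and Tpsb2, relative to endothelial markers 4 of 10, to muscle markers 6 of 10 and to fibroblast markers 7 of 10. The part of tissue composition in the protease values was not tested.

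**Figure D4:**
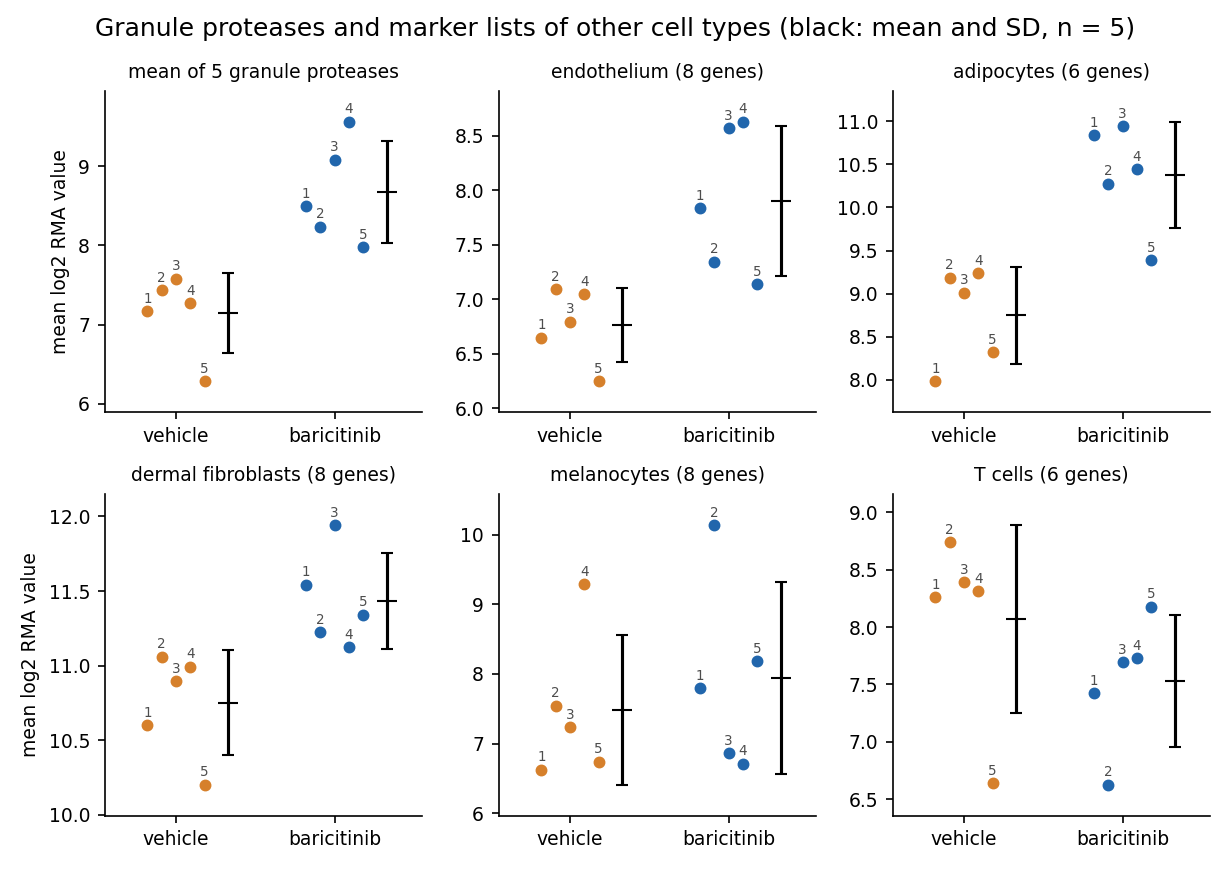
Mean log2 RMA value of the 5 granule protease genes and of marker lists for other cell types on each vehicle array (orange) and baricitinib array (blue), with replicate numbers and black marks for the mean ± SD of 5 arrays. The proteases, endothelial, adipocyte and fibroblast markers did not overlap between groups, and melanocyte markers were highest in baricitinib replicate 2 (10.13) and vehicle replicate 4 (9.29).

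RNA quality moved with the groups too, and among vehicle arrays only replicate 4 had a gap within the baricitinib range. Against that array the lowest baricitinib array was higher by 0.79 log2 for Mcpt4, 1.02 for Cma1 and 1.19 for Cpa3. By the brighter probe set it was higher by 0.61 for Tpsb2, 0.15 for Gata2 and 0.44 for Ms4a2. It was lower for Tpsab1 (-0.19), Kit (-0.47), Hdc (-1.21) and Fcer1a (-1.30). Vehicle replicate 4 was itself the lowest vehicle array for Cpa3, Ms4a2 and Fcer1a. It was the highest for Mcpt4, the brighter Tpsb2 probe set, Kit and Hdc. With the gap as a covariate the protease differences were 1.56 for Mcpt4, 1.47 for Cma1, 1.68 for Cpa3 and 1.51 for Tpsb2, with a limma adjusted p of 1.0 throughout, and those of Kit and Hdc were -0.03 and -0.04. Since the gap hardly varied among baricitinib arrays, that adjustment rested on the vehicle arrays, and RNA quality and treatment cannot be told apart. Array weights were lowest for vehicle replicates 5 (0.03) and 4 (0.50). The highest went to baricitinib replicate 1 (5.43), against 1.36 to 1.56 for the other baricitinib arrays, so that 1 mouse counted most. With these weights limma called 7 of 15 member probe sets, all higher, where 10.9% of all probe sets were called higher. They were Mcpt4 (adjusted p = 0.00867), Cma1 (0.0223), the brighter Tpsb2 probe set (0.0107), both Kit probe sets, the dim Ms4a2 probe set and the dimmer Gata2 probe set.

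The 5 genes outside the members whose centred profile over the 10 arrays came nearest to the mean profile of the proteases were Spaar, Exoc3l2, Pnpla2, Cutal and Mlxipl. Likeness was the root mean square difference between centred log2 values, which was 0.224, 0.224, 0.239, 0.239 and 0.253, where a flat gene would have 0.921. Spaar, the nearest, read 6.74, 6.19, 7.18, 7.38 and 5.99 log2 in baricitinib replicates 1 to 5. In vehicle replicates 1 to 5 it read 4.83, 5.88, 5.63, 5.49 and 4.62. Pnpla2 encodes adipose triglyceride lipase and Mlxipl a glucose-responsive transcription factor of fat and liver. Pnpla2 read 9.88, 9.08, 10.41, 10.75 and 9.09 log2 in baricitinib replicates 1 to 5 and 8.24, 8.87, 8.47, 8.92 and 7.33 in vehicle replicates 1 to 5. These genes were picked for this likeness, and their values are a description.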

How the data were processed

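Total RNA from skin of 5 baricitinib treated and 5 vehicle control mice was amplified (NuGen), labelled with biotin and read on Affymetrix whole-genome mouse arrays. For each probe set the authors deposited a log2 value from RMA, run within this experiment. The RMA version is not given in the sources used here. As RMA equalises the arrays, weak RNA appears as shifts of single genes. The number of arrays limits the precision.

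After 64 control probe sets were removed, 45037 of 45101 were tested without a filter. Probe sets were named from the platform annotation (34945 with 1 symbol, 932 with several, 9160 with none; 0 symbols updated from RefSeq). Groups were compared with limma 3.58.1 in R 4.3.3 (lmFit, eBayes, two-sided, Benjamini-Hochberg over all tested probe sets, threshold 0.05). Exact permutation tests used scipy 1.17.1 and all 252 assignments, whose smallest p is 0.00794. For lists a gene was read by its brightest probe set. The members and lists were chosen with earlier results of these data known. Named genes were all members, Kitl, Mitf, the 2 largest differences of each of 3 lists and the 5 nearest profiles. Mcpt1, Mcpt2, Ndst2 and Mcpt8 were added after their values were seen. Tested on simulated data with 45037 probe sets, limma found 19% of 100 shifted by 1 log2 and 72% of 100 shifted by 2 with all arrays, and 60% and 91% without vehicle replicate 5. The simulated noise was normal, independent between probe sets and equally wide on all arrays. The real arrays differ in this, so these shares may not hold for them.

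Alternatives were a filter on dim probe sets (above log2 5 on at least 4 arrays), median centring, quantile and cyclic loess normalization, array weights, the RNA gap as covariate, a replicate block, eBayes with trend and robust settings, a threshold of 0.10, the mean of a gene's probe sets and each array left out in turn. Values relative to other cell types, and the gap without each array, were added after seeing the data.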

Additional observations from a re-analysis of the deposited data

Results flagged for a closer look

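Of 32 groups of 5 values 4 held a value far from the rest by Dixon's criterion, where chance gives about 1.6 (1 in 20). The groups come from the same arrays, so these flags are not independent of each other. In vehicle replicate 5 Mcpt4 (4.77 log2), the brighter Kit probe set (4.02) and the brighter Hdc probe set (4.78) lay far below the other vehicle arrays. In baricitinib replicate 4 Tpsab1 (5.09) lay above the other baricitinib arrays. Leaving out vehicle replicate 5 moved the Kit difference from 1.21 to 0.55 and the Hdc difference from 0.91 to 0.41, each by over 1.5 times.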

How the results depend on the processing

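Over all probe sets the count called by limma was 0 with all arrays, 9676 with array weights, 12 without baricitinib replicate 5 and 848 without vehicle replicate 4, so it ran from 0 to 848 when 1 array was left out. For the mast cell probe sets it was 0, and 7 with array weights, and it ran from 0 to 1 when 1 array was left out. The 1 was the brighter Tpsb2 probe set, called without vehicle replicate 4. Among vehicle arrays only that array had an RNA gap within the baricitinib range. The filter, the normalizations, the trend and robust setting, the RNA gap as covariate and a threshold of 0.10 gave 0 for both counts. The replicate block also gave 0 for both counts, with a lowest member adjusted p of 0.351. Deviations of arrays with the same number correlated at -0.23 to 0.09, so the numbers were not treated as pairs.

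The median difference of the member genes, 0.96 log2, turned negative relative to endothelium (-0.18) and adipocytes (-0.67) and became 0.27 relative to dermal fibroblasts and 0.090 relative to skeletal muscle, by construction because those markers were higher as well; under the other settings it ran from 0.64 to 1.13, within the SD between array medians of 0.77. Of 266 differences of single probe sets under alternatives 245 kept their direction and side of the threshold, 8 came past it (7 with array weights) and 13 reversed. The dim Tpsb2 probe set reversed with quantile normalization (0.023), cyclic loess (0.073), array weights (0.14) and the RNA gap as covariate (0.35), and when 1 array was left out (baricitinib replicate 3 or 5 or vehicle replicate 1, 3 or 5) within a leave-one-out range of -0.14 to 0.032. Tpsab1 reversed with array weights (-0.018), and Kit by both probe sets (-0.034 and -0.010) and the brighter Hdc probe set (-0.039) with the RNA gap as covariate. The cause was not tested. The RNA gap difference of -1.83 log2 was -2.30 to -1.47 with 1 array left out, and its exact permutation p was then 0.0635 in 6 of the 10 cases. Dim probe sets, near the floor of the array, limit what can be said of Tpsab1, Fcer1a and the second probe sets of Tpsb2, Kit and Ms4a2.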
